A study of Rattus norvegicus with 218 samples.

Results

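Laser-captured rat neurons from the DMV, the dorsal motor nucleus of the vagus nerve, were sorted into samples in which a Fos transcript was detected and samples in which it was not. Fos is an immediate early gene: its transcript is made within minutes of strong synaptic or hormonal input, falls again within hours, and its protein pairs with members of the Jun family to form the AP-1 transcription factor. It is therefore widely used as a mark of recently activated neurons, and in the DMV, which holds the vagal motor neurons to the heart and gut, it has been used to map which cells respond to visceral stimuli. The 2 sets were defined by a measured value: a sample belonged to the Fos set if the Fos assay had a threshold cycle (Ct), the cycle at which the fluorescence of a qPCR reaction crosses its threshold, and to the other set if it had none. A lower Ct stands for more transcript, and an assay that gave no Ct found no transcript above its detection limit. Of 213 samples, 85 had a Ct in 84 or more assays, 50% of the panel, and were kept. Fos was detected in 34 of them and not in 51. Among pools of several neurons, 22 had Fos and 41 did not; among single neurons, 12 had Fos and 10 did not.

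All animals were adult male Sprague Dawley rats. Naive rats stood for the homeostatic state. Sham rats had ketamine/xylazine anesthesia and exposure of the femoral vessels of both legs without ligation, and RIPC (remote ischemic preconditioning) rats had the same anesthesia with the vessels tied and then released. Tissue of RIPC rats was taken 2.5 h after reperfusion, and sham rats, which had no occlusion, are given the same 2.5 h. Fos in sham and RIPC samples was thus read hours after that surgery. By the study's methods animals were decapitated after a brief exposure to isoflurane. Cells stained for NeuN, a protein of neuronal nuclei, were cut out by laser from the left and right DMV and assayed one at a time or in pools by microfluidic RT-qPCR for Fos and 164 other genes. Kept samples came from 3 naive rats (34 samples), 4 sham rats (36) and 3 RIPC rats (15). The labels thus name more sham rats than the cohort size in the study's methods, and the labels were followed. Cells of one rat are not replicates of a treatment, so samples with and without Fos were compared within rats and treatments over rats, apart from the interaction with surgery at the end. The p-values within rats measure the spread between samples of the same rats.

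The kept samples carried the marks of neurons in both sets. Camk2a, Scn2a, Map2, Eno2 and Rgs4, which are used as neuronal markers, had a Ct in all 34 samples with Fos and all 51 without. Chat, the enzyme that makes acetylcholine in vagal motor neurons, was detected in 20 of 22 pools with Fos and 40 of 41 pools without, and in 11 of 12 and 8 of 10 single neurons. Gfap, an astrocyte marker, was detected in nearly the same shares: 21 of 22 pools with Fos, 40 of 41 without, 12 of 12 single neurons with Fos and 9 of 10 without. Its level differed by 0.30 cycles between the sets (SE 0.34, adjusted p = 0.919, limma), a level being the negative Ct centred on the sample's median over the 35 genes detected most often. What part glial transcripts had in any value below was not tested.

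Detection of Fos went with the number of assays that worked in a sample. Of the kept samples 40% had Fos, against 6 of 128 samples below the limit (4.69%). By the limit itself kept samples had more assays with a Ct, with a median of 100 against 74 in all samples. Whether Fos differed in this from other genes was not tested. At the limit itself, 2 of 8 samples with 84 or 85 assays had Fos, and neither of the 2 samples with 82 or 83 did. When the limit was lowered to 42 assays, the number of other assays with a Ct ranged from 73 to 134 with a median of 104 in 25 pools with Fos, and from 43 to 123 with a median of 92 in 63 pools without. Within rats the difference was then 12.6 assays (p = 0.00939, permutation of the Fos labels within rats, two-sided). In single neurons the medians were 95.5 in 14 with Fos and 68 in 84 without, a difference of 27.9 assays within rats (p = 1e-05, the smallest value these permutations can give). Above the limit of 84 the sets overlapped. Kept pools had 85 to 134 other assays with Fos and 84 to 123 without, a difference within rats of 0.81 (SE 2.75, p = 0.777, permutation). Kept single neurons had medians of 99 and 87.5, and the 15 neurons of naive replicate 3, the single rat with kept neurons of both kinds, gave a difference of 12.5 (SE 8.28, p = 0.196, exact permutation). With only the first run of samples run again, this difference was larger, with p under 0.05 (permutation), as given at the end. Every gene comparison below therefore holds the number of other detected assays constant.

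**Figure D1:**
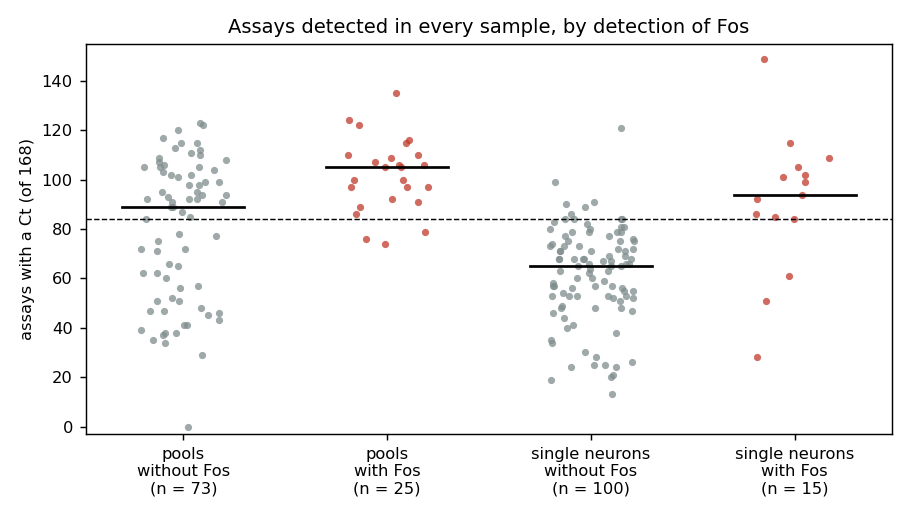
Number of assays with a Ct in each of the 213 samples, by sample type and detection of Fos. Each point is a sample, the bars are medians and the dashed line is the limit of 84 assays. Samples with Fos lie mostly above the limit, and only 6 of the 128 samples below it had Fos.

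The absence of a Ct was not a firm reading. All 5 samples that had been run again were single neurons, and of the assays found in either run of a sample only 25% to 61.2% were found in both. Fos was missing in both runs of 4 of them, and in the remaining one, a neuron of naive replicate 3, it was missing in the first run and had a Ct of 23.6 in the second. Of the 4 kept, 2 were under the limit in each run alone and 1 was under it in the first run but not in the second. Some samples without Fos may thus hold it below the reach of 1 run, and results that rest on first runs alone are given where they differ.

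The strength of the Fos signal varied widely. The Fos Ct ran from 10.2 to 23.9 over the 34 samples with a median of 16.5. Values above 20 occurred in 3 samples, which were 2 pools and 1 single neuron of naive replicate 3. As a level, Fos in pools ran from -11.13 to 0.80 cycles with a median of -3.86, and in single neurons from -9.47 to -1.10 with a median of -3.24. A level is on a log scale in which 1 cycle is about a doubling of transcript. By treatment, the 4 naive pools with Fos had a mean level of -6.26 ± 4.17 (SD), the 15 sham pools -3.31 ± 1.54 and the 3 RIPC pools -4.67 ± 1.17. The 5 RIPC single neurons with Fos lay close together, between -3.36 and -2.38, and the 6 naive ones between -9.47 and -1.10. The 1 sham single neuron with Fos was at -3.41, just outside the RIPC range. The ranges of the treatments overlapped in pools, and in single neurons the naive range covered those of sham and RIPC.

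The share of pools with Fos was compared between treatments over rats. In naive rats it was 0 of 1 pool, 1 of 7 (14.3%) and 3 of 11 (27.3%) in replicates 1 to 3. In sham rats it was 2 of 5 (40%), 4 of 7 (57.1%), 5 of 9 (55.6%) and 4 of 14 (28.6%) in replicates 1 to 4. In RIPC rats it was 1 of 1 (100%), 2 of 6 (33.3%) and 0 of 2. The sham rats all lay above the naive rats, with means of 45.3% ± 13.6 (SD, n = 4) and 13.9% ± 13.6 (SD, n = 3). The difference of 31.5 percentage points did not pass (p = 0.0571, exact permutation over rats, two-sided, and p = 0.171 adjusted over the 3 pairs of treatments). The smallest p before adjustment in this design is 0.0286. With the other pairs at their observed p, even that value would not have passed after adjustment. RIPC rats averaged 44.4% ± 50.9 (SD, n = 3) and overlapped both other groups; RIPC differed from naive by 30.6 points (adjusted p = 0.75, exact permutation, in a design whose smallest p is 0.1 and so could not pass) and from sham by -0.87 points (adjusted p = 1, exact permutation). At the limit of 42 assays the sham and naive rats overlapped, with sham replicate 4 at 23.5% and naive replicate 3 at 27.3%. RIPC replicate 1 then had 2 of 8 pools with Fos and the RIPC mean was 16.7%. Without any limit, Fos was found in 4 of 27 naive pools (14.8%), 17 of 48 sham pools (35.4%) and 4 of 23 RIPC pools (17.4%). Above the limit of 84 the RIPC mean rests on replicate 1, which had a single kept pool: without that rat the differences were 2.81 points from naive and -28.7 points from sham. Over rats with 2 or more kept pools, chosen after seeing the data, RIPC lay below naive, as given at the end.

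**Figure D2:**
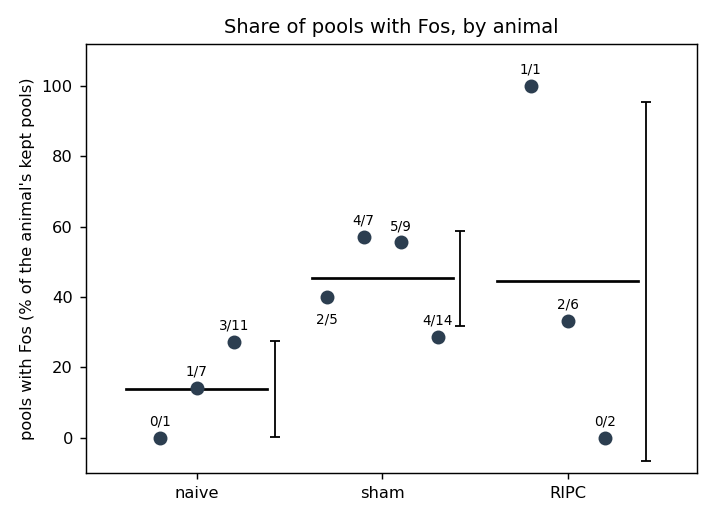
Share of each rat's kept pools in which Fos was detected, in percent, by treatment. Each point is a rat, labelled with pools with Fos over kept pools; horizontal bars are means and vertical bars the SD over rats. Sham rats sit between 28.6% and 57.1% and naive rats between 0% and 27.3%.

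Kept single neurons were too unevenly spread for such a test. Fos was found in 6 of 15 neurons of naive replicate 3, in the 1 sham neuron, and in 5 of 6 RIPC neurons, of which 2 came from replicate 1, 3 from replicate 3, and the one without Fos from replicate 2. Without any limit on the number of assays, the single neurons with Fos numbered 9 of 65 in naive rats (13.8%), 1 of 22 in sham rats (4.55%) and 5 of 28 in RIPC rats (17.9%). No difference between the sides of the brainstem was detected. Over the 7 rats with at least 2 kept samples per side, the left share exceeded the right by 1.98 points on average (p = 0.953, exact sign-flip permutation). Single rats went both ways, from 5 of 9 samples on the left against 0 of 6 on the right in sham replicate 4 to 0 of 3 against 2 of 4 in RIPC replicate 2. Pools with Fos held 4.27 ± 1.45 cells (SD, n = 22) and pools without 3.90 ± 1.11 (SD, n = 41), a difference within rats of 0.50 cells (SE 0.34, p = 0.171, permutation). What part pool size had in the detection of Fos was not tested further.

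The partners and upstream regulators of Fos were examined first. FosB, a second Fos family member induced by similar stimuli, was detected in 1 of 34 samples with Fos and in 0 of 51 without, for which the exact 95% interval allows up to 6.98%. The one was a single neuron of naive replicate 3 that just reached the limit, with 84 assays. Fos counts among these, so it is the 1 kept sample that would fall under the limit without its Fos assay, and it is among the 6 neurons with Fos of that rat. Jun, the classical partner of Fos in AP-1, was found in 21 of 22 pools with Fos and in 40 of 41 without, at levels of 0.04 ± 0.99 (SD) and -0.24 ± 0.82. Its difference within rats and sample types was 0.29 cycles (SE 0.22, 95% interval -0.14 to 0.73, adjusted p = 0.919, limma). JunD, a more constantly expressed partner, was found less often beside Fos: in 12 of 22 pools against 32 of 41, and in 8 of 12 single neurons against 9 of 10. The difference over both sample types was -23.5 percentage points (SE 10.8, adjusted p = 0.65, limma), and the share was lower with Fos in 5 of the 8 combinations of rat and sample type that held both sets and higher in 1. Where JunD was detected its level was 1.87 ± 1.07 (SD) with Fos and 1.54 ± 0.63 without (difference 0.32, SE 0.27, adjusted p = 0.919, limma).

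Creb1, which activates Fos transcription after cAMP and calcium signals, and Crebbp, the histone acetyltransferase that CREB recruits, were detected in all 34 samples with Fos and all 51 without. The Creb1 level differed by -0.21 cycles (SE 0.27, adjusted p = 0.919, limma). Crebbp ran from -1.38 to 1.23 in pools with Fos and from -1.36 to 1.64 in pools without. Its mean was lower with Fos in 6 of 7 rats (difference -0.50 cycles, SE 0.20, adjusted p = 0.818, limma). In RIPC replicate 2, counted among the 6, the means were almost identical. In single neurons the Crebbp difference was 0.14 (SE 0.41). Mapk14, the stress kinase p38 alpha, differed by 0.31 cycles (SE 0.26) and Camk2a, a calcium-dependent kinase, by 0.38 (SE 0.44) over both sample types. Of the 7 genes of the activity list 6 could be tested by level in pools: 4 were higher with Fos and 2 lower, 0 were called, and their median difference was 0.28 cycles against -0.09 over all 130 genes tested.

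Over the whole panel, no gene differed between samples with and without Fos past an adjusted p of 0.05, either in how often it was detected or in its level. In pools, 96 genes were tested by detection and 0 were called (0% of the genes; 5 had an unadjusted p under 0.05). Single neurons gave 0 of 109 genes (0%; 10 under 0.05), and both sample types together 0 of 109 (0%; 6 under 0.05). By level the calls were 0 of 130 genes in pools (0%; 6 under 0.05), 0 of 92 in single neurons (0%; 7 under 0.05) and 0 of 142 over both (0%; 4 under 0.05). Conditional logistic regression and the exact Cochran-Mantel-Haenszel test, run on detection, also called 0 genes in each case. The median SE was 11.1 percentage points for detection and 0.45 cycles for level in pools, and 22.6 points and 0.83 cycles in single neurons, so the intervals below are wide and do not show that the sets were alike. The genes nearest to the threshold are described next, with all their tests short of it.

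Of the 5 genes with the smallest p by detection in pools, 4 were found more often beside Fos and 1 less often. Gad2, an enzyme of GABA synthesis, was found in 20 of 22 pools with Fos (90.9%) and 27 of 41 without (65.9%), and its share was higher with Fos in 6 of 7 rats (difference 28.8 points, SE 11.5, adjusted p = 0.672, limma). Gad1, its paralog, was found in 13 of 22 and 19 of 41 (difference 14.5, SE 13.1, adjusted p = 0.827). Htr6, a serotonin receptor coupled to cAMP, was found in 16 of 22 (72.7%) and 18 of 41 (43.9%), higher in 6 of 7 rats and lower in 0 (difference 29.0, SE 12.9, adjusted p = 0.672). Drd2, the inhibitory dopamine D2 receptor, was found in 20 of 22 and 30 of 41 (difference 23.5, SE 11.1, adjusted p = 0.728). IL10ra, a chain of the interleukin 10 receptor, was found in 9 of 22 (40.9%) and 5 of 41 (12.2%). In naive replicate 3 these were 2 of 3 against 0 of 8 pools, while in sham replicate 4 they were 0 of 4 and 0 of 10. The difference was 24.6 points in pools (SE 9.70, adjusted p = 0.672, limma) and 26.9 over both sample types (SE 8.94, 95% interval 9.09 to 44.7, adjusted p = 0.385), the smallest p in that fit. Cckar, the receptor for cholecystokinin through which gut signals reach the vagus, was the one of these 5 found less often, in 11 of 22 pools with Fos and 27 of 41 without (difference -24.2, SE 10.5, adjusted p = 0.672), lower in 5 of 7 rats and higher in 1. In single neurons the shares of all 6 of these genes were higher with Fos: Gad2 in 9 of 12 against 5 of 10, Gad1 in 8 of 12 against 3 of 10, Htr6 in 7 of 12 against 4 of 10, Drd2 in 9 of 12 against 4 of 10, IL10ra in 4 of 12 against 1 of 10 and Cckar in 4 of 12 against 3 of 10. Within rats and with the number of other assays held constant, the differences were 29.4 points for Htr6 (SE 24.7) and 23.0 for IL10ra (SE 21.3), and they were below 0 for Gad2 (-15.6, SE 23.9), Gad1 (-19.7, SE 22.2), Drd2 (-9.99, SE 23.4) and Cckar (-11.2, SE 23.95). The sign of the last 4 thus differed between the shares and the fit. Naive replicate 3 was the only rat with kept neurons of both kinds. In it Gad2 was found in 3 of 6 neurons with Fos and 5 of 9 without, and Gad1 in 2 of 6 and 3 of 9. Drd2 was found in 3 of 6 and 4 of 9, and Cckar in 1 of 6 and 2 of 9. Before the number of other assays was held constant, these shares were lower with Fos for Gad2 and Cckar. They were equal for Gad1 and higher for Drd2, so the fitted signs of Gad1 and Drd2 do not follow from them.

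**Figure D3:**
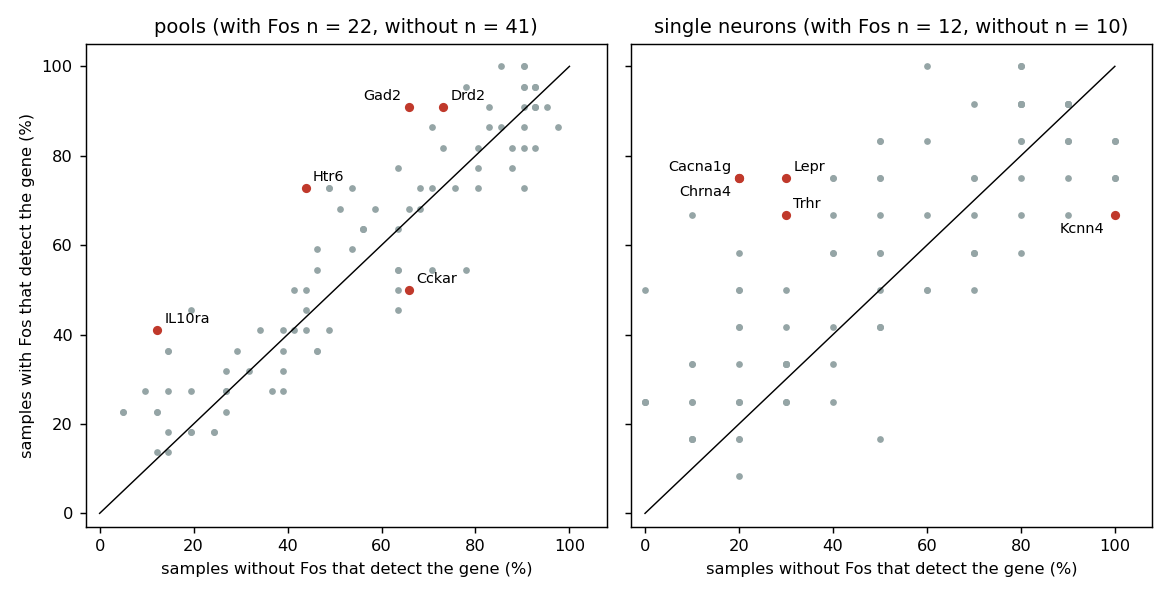
Share of samples with Fos in which a gene was detected, against the share of samples without Fos, both in percent, for each gene tested in pools and in single neurons. Each point is a gene; red points are the 5 genes with the smallest p in that comparison, the diagonal marks equal shares, and no point passed the adjusted threshold. Points scatter more widely in single neurons, where each set has 12 or fewer samples.

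In single neurons the comparison within rats rests on the 15 neurons of naive replicate 3, of which 6 had Fos. Cacna1g, a T-type calcium channel, was detected in 5 of 6 neurons with Fos and 1 of 9 without, and Chrna4, a nicotinic receptor subunit, in the same 5 of 6 and 1 of 9. Lepr, the leptin receptor, was found in 5 of 6 and 2 of 9, and Trhr, the receptor for thyrotropin-releasing hormone, which excites DMV neurons, in 6 of 6 and 3 of 9. Kcnn4, a calcium-activated potassium channel, went the other way, in 3 of 6 and 9 of 9. The fitted differences were 74.3 points for Cacna1g (SE 22.02, adjusted p = 0.16), 68.7 for Trhr (SE 22.7, adjusted p = 0.16), -63.5 for Kcnn4 (SE 21.2, adjusted p = 0.16), 62.6 for Chrna4 (SE 21.7, adjusted p = 0.161) and 66.0 for Lepr (SE 23.98, adjusted p = 0.185), all from limma. With first runs alone Cacna1g, Chrna4 and Kcnn4 passed, together with Ppard (adjusted p = 0.0332 for each of the 4, limma). That fit also leaves out the kept neurons with 53, 67 and 83 assays in their first run, which is under the limit. Among them is the neuron with a Fos Ct in its second run only. Without the neuron that reached the limit only by its Fos assay, the 5 differences lay between 52.1 and 70.0 points or, for Kcnn4, at -54.7, with adjusted p of 0.49 or 0.495 (limma).

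In pools the same genes gave smaller or opposite differences. Cacna1g was found in 14 of 22 pools with Fos (63.6%) and 23 of 41 without (56.1%), with a fitted difference of -3.72 points (95% interval -27.8 to 20.3). Trhr was found in 10 of 22 and 26 of 41 pools (difference -7.57, SE 8.79), and Lepr in 11 of 22 and 18 of 41 (difference 0.85, SE 13.6). Kcnn4 was found in 21 of 22 and 40 of 41 pools, too many to be tested. Chrna4 was found in 16 of 22 pools with Fos and 20 of 41 without (difference 20.2, SE 12.6), and its difference over both sample types was 28.3 points (SE 10.9, adjusted p = 0.616, limma). Whether pools and single neurons differ was not tested.

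Th, which encodes tyrosine hydroxylase, the rate-limiting enzyme of catecholamine synthesis, had the smallest p by level in pools. It was detected in 19 of 22 pools with Fos and 37 of 41 without. Its level ran from -2.99 to 5.32 with a median of 2.29 in pools with Fos, and from 0.17 to 6.02 with a median of 2.24 in pools without. The ranges overlapped and the medians were close, but 6 of the 7 rats with both kinds of pool had a lower mean with Fos. In naive replicate 2 the one pool with Fos stood at -0.65 against 0.85 to 4.51 without, and in naive replicate 3 the one detected pool with Fos stood at -0.75 against 0.47 to 3.65. In sham replicate 4 the levels with Fos were -1.89, 0.79, 1.08 and 2.37 against 0.17 to 3.96, and in RIPC replicate 2 they were -0.74 and 1.25 against 0.63 to 3.34. Sham replicate 3 was the exception, with 2.53 to 5.32 in 5 pools with Fos against 2.48 to 3.69 in 4 without. The difference within rats was -1.44 cycles (SE 0.47, 95% interval -2.38 to -0.49, adjusted p = 0.476, limma). Without sham replicate 3 it was -2.02 and passed (adjusted p = 0.0493), and it was -0.94 when the rat was left out of the model (adjusted p = 0.93).

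**Figure D4:**
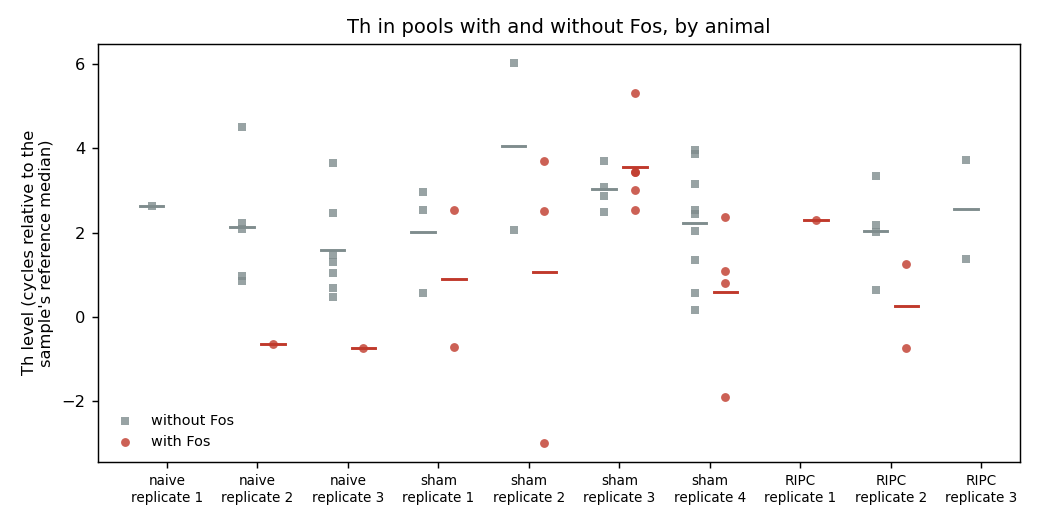
Th level in each pool in which Th was detected, in cycles relative to the sample's reference median, by rat, for pools with Fos (red circles) and without (grey squares); horizontal bars are means. The mean with Fos lies below the mean without Fos in 6 of the 7 rats that have both, and above it in sham replicate 3.

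In single neurons Th was found in 9 of 12 neurons with Fos, from -4.82 to 1.90, and in 5 of 10 without, from -6.17 to 5.39 (difference -0.36, 95% interval -3.63 to 2.91, adjusted p = 0.955, limma). Dbh, which turns dopamine into noradrenaline, was detected in 13 of 22 pools with Fos and 22 of 41 without, and in 6 of 12 and 2 of 10 single neurons, at mean levels of -2.52 ± 2.46 and -1.03 ± 3.27 (SD) in pools and -3.85 ± 4.50 and -2.84 ± 1.35 in single neurons. The difference within rats was 0.37 cycles over both sample types (SE 0.91, adjusted p = 0.942, limma), of the opposite sign to these means. The Th and Dbh differences were not compared with each other.

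Over the panel, 76 of 130 genes had a lower fitted level with Fos in pools and 61 of 92 in single neurons. A level exists only where a gene had a Ct, so how often a gene was detected can bear on its mean level. What part that had in the level differences was not tested. All 6 genes with an unadjusted p under 0.05 by level in pools were lower with Fos. After Th and Crebbp these were Gabrq, the theta subunit of the GABA-A receptor (difference -0.90 cycles, SE 0.40), Chrm5, a muscarinic receptor (-1.39, SE 0.62), Galr1, the inhibitory galanin receptor (-1.03, SE 0.48), and Nmbr, the neuromedin B receptor (-1.54, SE 0.68), each with an adjusted p of 0.818 from limma. Chrm5 and Galr1 were lower with Fos in 6 of 7 rats and Gabrq in 5 of 7. Gabrq rests in part on 1 pool with Fos of naive replicate 2 at -8.08, and without that rat its difference was -0.40 cycles.

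Over both sample types the 5 smallest p by level belonged to Th (-1.28 cycles, SE 0.47), Chrm5 (-1.30, SE 0.55), Tnni3 (-1.80, SE 0.69), Crebbp (-0.37, SE 0.17) and Cacna1b (-0.34, SE 0.17), each with an adjusted p of 0.876 from limma. Tnni3, which encodes cardiac troponin I, was detected in 9 of 34 samples with Fos and 7 of 51 without, and Cacna1b, the N-type calcium channel, in all samples of both sets.

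In single neurons the 7 genes with an unadjusted p under 0.05 by level were lower with Fos as well. They included Hrh1, the histamine H1 receptor (-3.27 cycles, SE 0.90, adjusted p = 0.423), Htr1d, a serotonin receptor (-3.23, SE 1.15), Cckbr, the gastrin and cholecystokinin B receptor (-2.38, SE 0.92), IL6r, the interleukin 6 receptor (-1.91, SE 0.74), and Oxtr, the oxytocin receptor (-3.62, SE 1.45), the last 4 with an adjusted p of 0.433 from limma. In naive replicate 3 the Hrh1 levels averaged -9.46 in the 4 detected neurons with Fos and -6.55 in the 5 without. Without the neuron that reached the limit only by its Fos assay, Cckbr passed with a difference of -3.70 (adjusted p = 0.0122, limma) and the Oxtr difference was -1.30. Within the range of assay counts that both sets share, which leaves out that neuron and the one with 148 other assays, these were -3.68 (adjusted p = 0.0104) and -1.31. In pools the level differences of these 5 genes were 0.82 for Hrh1 (SE 1.22), 0.12 for Oxtr (SE 0.31), 0.04 for IL6r (SE 0.36), 0.01 for Cckbr (SE 0.52) and -0.12 for Htr1d (SE 0.63).

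Further genes of interest in the DMV gave differences with intervals that included 0. Npff, a neuropeptide, was detected in 15 of 22 pools with Fos and 21 of 41 without, Adra1b, an alpha-1 adrenergic receptor, in 15 of 22 and 28 of 41. Their level differences over both sample types were 0.80 cycles for Npff (SE 0.62, adjusted p = 0.919, limma) and 0.01 for Adra1b (SE 0.37, adjusted p = 0.987). Adra1b was found in 9 of 12 single neurons with Fos and 3 of 10 without (difference 34.5 points, SE 23.1, adjusted p = 0.739). For the cholinergic genes the level differences were -0.18 cycles for Chat (SE 0.30) and 0.05 for Ache, which breaks acetylcholine down (SE 0.18). Cartpt, the CART neuropeptide, was found in 18 of 22 pools with Fos and 37 of 41 without, with a level difference of -0.33 (SE 0.41).

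**Figure D5:**
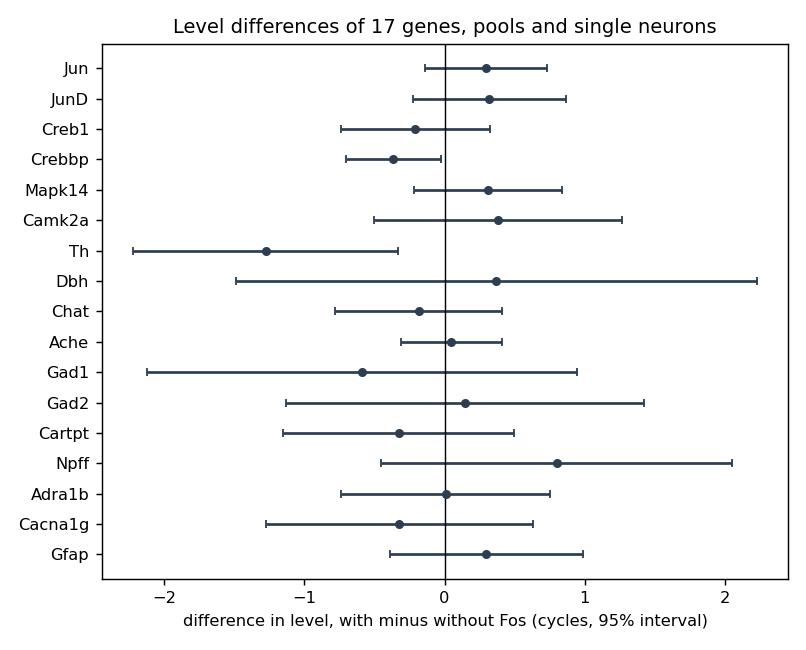
Difference in level, with minus without Fos, in cycles, within rats and sample types, for 17 genes named by rule in every comparison. Points are limma estimates with 95% intervals. The intervals of Th (-2.22 to -0.33) and Crebbp (-0.71 to -0.02) lie below 0 before adjustment for the number of genes, and all others include 0.

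Groups of genes were described by their counts and medians, and 0 members of any group were called. By level in pools, all 7 calcium channel genes tested were lower with Fos, from -0.88 to -0.04 cycles, with a median of -0.28 against -0.09 over all genes tested, of which 76 of 130 were lower; 5 of 6 were lower in single neurons, with a median of -0.18 against -0.23. Of 6 GABA-A receptor subunits 5 were lower in pools, with a median of -0.29, and 5 of 6 in single neurons, with a median of -0.22. Acetylcholine receptors were lower for 6 of 7 genes in pools, with a median of -0.33. Adrenergic receptors (median 0.03), inflammatory signalling genes (0.04) and G protein signalling regulators (0.08) were each higher for 3 of 4 genes in pools, and the remaining lists had medians between -0.27 and 0.28. By detection in pools, serotonin receptors were found more often with Fos for 6 of 8 genes, with a median of 9.19 points against 0.87 over all genes, of which 52 of 96 were higher, and stress and metabolic transcription factors for 9 of 12, with a median of 4.70. In single neurons those medians were -1.60 and -4.93 points against -3.46 over all genes, of which 45 of 109 were higher. Of neuropeptides and secreted factors, 6 of 8 were found more often beside Fos in pools (median 5.55 points) and 0 of 6 in single neurons (median -10.9). Members of a group were measured in the same samples, and no group was tested.

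Whether the difference between samples with and without Fos depended on surgery was examined as an interaction over both sample types. Surgery differs between rats, while the error of this fit is the spread between samples, so its p-values are too small for a statement about treatment and are given as a description of these samples. Of 109 genes by detection 0 were called (0%; 12 had an unadjusted p under 0.05), and of 134 by level 0 were called (0%; 5 under 0.05), both from limma. The 3 genes nearest to the threshold by detection, named after their values were seen, were Hrh4, Npr1 and Ppard, each with an adjusted p of 0.0786. With the rat as a random block the adjusted p of Hrh4, Ppard and Npy1r was 0.0467 (limma), which carries the same limit and is not taken as a difference between treatments. Hrh4, the histamine H4 receptor, was found in 7 of 10 naive samples with Fos and all 24 without, and in all 24 operated samples with Fos and 25 of 27 without (interaction 41.1 points, SE 12.4). Npr1, the receptor for atrial natriuretic peptide, was found in 4 of 10 naive samples with Fos and 1 of 24 without, and in 4 of 24 and 2 of 27 operated samples (interaction -45.4, SE 14.3). Ppard, a nuclear receptor for fatty acids, was found in 6 of 10 and 4 of 24 naive and in 7 of 24 and 14 of 27 operated samples (interaction -69.0, SE 21.7). Naive samples with Fos came from only 2 rats, and 9 of the 10 were from naive replicate 3, so that this rat and the naive state cannot be told apart. The mix of sample types differed too: single neurons were 6 of 10 naive samples with Fos and 6 of 24 operated ones. Npr1 was found in 3 of 6 naive and 3 of 6 operated single neurons with Fos. In pools with Fos these were 1 of 4 and 1 of 18. Ppard was found in 5 of 6 naive single neurons with Fos and 2 of 9 without. No operated rat had kept single neurons of both kinds, so the operated contrast rests on pools.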

How the data were processed

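The deposited table held threshold cycles (Ct) for Fos and 164 other genes, as the authors exported them without normalization, with a missing value below the limit of detection. The instrument was a microfluidic qPCR system run on preamplified cDNA. Chips could not be used as batches, since no label names them. Its 218 columns gave 213 samples (115 single neurons, 98 pools) of 10 rats once 5 repeat runs were averaged with their first runs, and 0 columns lacked a sample. Samples with a Ct in 84 or more assays were kept and split by whether Fos had a Ct. Level was the negative Ct centred on the sample's median over the 35 most detected genes.

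Detection (0 or 1, genes found in 10% to 95% of samples) and level (genes with at least 5 samples in each set) were fitted with limma 3.58.1 in R 4.3.3, with the rat as a block and the number of other detected assays as a covariate, and adjusted over all genes tested by Benjamini-Hochberg. Rats were the replicates of treatments, except in the interaction of Fos with surgery, whose error is the spread between samples. Single values were tested by permuting Fos labels within rats or treatments over rats. Alternatives included conditional logistic regression (survival 3.8.3), the exact Cochran-Mantel-Haenszel test, a limit of 42 assays, first runs only, and leaving out each rat. The genes named were the 5 with the smallest p in each comparison and a fixed list of activity, transmitter and marker genes. Nmbr and the genes of the surgery interaction were named after their values were seen. The samples, gene lists and tests were chosen with earlier results of these data known.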

Additional observations from a re-analysis of the deposited data

Results flagged for a closer look

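Values far from the rest of their group were searched in 14 groups of 4 to 10 samples, and chance gives such a value in about 1 group in 20. Among the 6 naive single neurons with Fos, 1 had 148 other assays with a Ct, against 101 in the next. Among the 9 naive single neurons without Fos, 1 had 121, against 99 in the next. The counts of 121 and 99, both in neurons without Fos, were each found over 2 joined runs, with 88 and 107 assays for the former and 67 and 86 for the latter. The neuron with 148 was run once. The lowest Th level among the 4 naive single neurons without Fos in which Th was detected was -6.17 cycles, against -1.04 in the next.

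Fos was also detected in 6 of the 128 samples below the limit of assays, which enter no gene comparison. These were 3 pools and 3 single neurons with 28 to 79 assays and a Fos Ct of 12.5 to 17.5.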

How the results depend on the processing

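The count of genes called was 0 in 164 of the 175 fits run, and no result that answers a comparison changed direction past its threshold. For detection in single neurons it was 1 (Lepr) at a limit of 42 assays and 4 with first runs only. For level in single neurons it was 1 (Cckbr) over the shared range of assay counts and 1 (Cckbr) with the limit counted without Fos, an alternative chosen after seeing the data, under which the assay difference in single neurons was 16.7 (p = 0.0759, exact permutation). For the surgery interaction, whose p-values are too small since samples stand for rats, the count by detection was 3 with the rat as a random block (Hrh4, Npy1r and Ppard) and 2 with the stronger part of the Fos signals (IL10ra and Npr1), and by level 1 with the stronger part (Gabrq). Leaving out 1 rat gave 0 to 1 for level in pools (Th, without sham replicate 3), 0 to 3 for the interaction by detection (3 without naive replicate 3, and Ppard without sham replicate 3) and 0 to 1 for the interaction by level (Gabrq, without naive replicate 3). Without naive replicate 3 the naive samples with Fos are 1 pool, that with Gabrq at -8.08, which is assumed to vary like the other samples, so these calls rest on that pool. The difference in other assays was 12.6 in pools (p = 0.00939, permutation) and 27.9 in single neurons (p = 1e-05, permutation) at the limit of 42, and 18.4 in single neurons with first runs only (p = 0.0101, permutation). The causes were not tested.

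Without the replicate block (no rat term), 0 genes were called in every gene comparison, and the differences were 2.65 assays in pools, 9.55 assays in single neurons and 0.37 cells per pool. In rats with 2 or more kept pools, an alternative chosen after seeing the data, the sham and naive shares differed by 24.5 points and RIPC and naive by -4.11. The surgery interaction in pools only, also chosen after seeing the data, called 0 genes. Single neurons without naive replicate 3, and differences of rats for single neurons, could not be run because no other rat had both kinds of neuron.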
